A study of Mus musculus with 47 samples.

Results

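The first day after doxycycline was taken away was examined in the 4 SI clones of a mouse reprogramming study, which hold 8 of its 47 messenger RNA libraries. Each clone was sequenced at d22, after 21 days with the drug and 1 day without it, and at d21, after 21 days with the drug and 0 days without it. The libraries were chosen by their titles and were paired by clone number, so that every clone was set against itself. All 8 were made from secondary reprogramming cells, that is from secondary mouse embryonic fibroblasts, which already carry the drug-switched genes, and both days had the same 21 days of drug behind them. The other libraries came from the same SI clones at other days, from 4 clones of a class named SC, whose d22 and d21 libraries had the same days with and without the drug, and from 3 samples of feeder mouse embryonic fibroblasts that had no drug (0 days). The labels spell out neither SI nor SC, and they do not give the promoter, the factor genes that the drug drives or the sex of the cells. A clone is a single line of descent, and whether feeders were present in the clone libraries is not stated.

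Doxycycline switches on added copies of reprogramming factors in cells of this kind. Oct4, Sox2, Klf4 and Myc together can move a fibroblast through an epithelial-looking state towards pluripotency, the capacity to form every tissue of the body. A line that has built up its own pluripotency network holds that state without the drug, and one that has not loses it. Withdrawal is therefore the usual test of whether a clone has become independent of the added factors.

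The deposited values are RPKM, in which reads are divided by gene length and by the size of the library. Their spacing in short genes gave 32.3 to 80.3 megareads in 6 of the 8 libraries, up to a whole multiple, at which 1 read in a 1 kb gene is worth 0.0125 to 0.031 RPKM. Between 11404 and 11858 genes reached 1 RPKM in a library. Clone SI3 stood apart from the other 3 at both days. Epcam, an epithelial adhesion protein, measured 102, 102, 13.4 and 117 RPKM at d22, against 152, 126, 25.6 and 130.3 RPKM at d21, in SI1 to SI4. Fibroblast matrix genes had a mean log2(RPKM + 1) of 8.03 in SI3 at d22 against 6.77 to 6.92 in the other clones that day, and of 6.85 in SI3 at d21 against 5.62 to 5.70 in the others. The one-day change itself was correlated across genes at r = 0.940 to 0.953 between SI1, SI2 and SI4, and at 0.705 to 0.788 between SI3 and each of them, a description in which genes are not independent. Below, 4 values always run from SI1 to SI4, and counts that differ without SI3 are given both ways.

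The question was which genes moved within 1 day of drug removal. Most detected genes did: limma on log2(RPKM + 1), with clone as a block, called 6798 of 11878 tested genes (57.2%) at an adjusted p under 0.05. Of these, 3382 were higher at d22 (28.5% of those tested) and 3416 were lower (28.8%). Every count for a gene list below is to be read beside these shares. Lists and members were chosen with earlier results of these data known, so such a contrast is only a description. Changes of at least 2-fold on that scale numbered 938 higher (7.90%) and 682 lower (5.74%). The median change over all tested genes was -0.025, and 4261 genes had no overlap between the 4 libraries of d22 and the 4 of d21. In all, 7917 genes moved the same way in all 4 clones. Without the clone block limma called 4497 genes, and without SI3 it called 8649. All p-values for the SI change rest on these 4 clones, or fewer where a clone was left out, and speak for no wider set. limma also draws the spread of each gene towards that of genes of like level. In bulk RNA fewer cells of a type and less RNA per cell cannot be told apart. Every log2 difference given is one of log2(RPKM + 1), so that for weakly expressed genes it is smaller than the true fold. No library was made at d22 on the drug, so drug removal cannot be told apart from the added day or from handling.

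All 4 reprogramming factors fell. Sox2, a pluripotency transcription factor that binds DNA beside Oct4, measured 1.4, 1.66, 2.71 and 1.4 RPKM at d22, against 155, 112, 82.0 and 148 RPKM at d21 (log2 -5.47 ± 0.26 SE, adjusted p = 0.000256). Klf4, a zinc finger factor, measured 4.35, 5.92, 8.22 and 5.34 RPKM at d22, against 228, 150.1, 90.1 and 217 RPKM at d21 (log2 -4.57 ± 0.34 SE, adjusted p = 0.000337). Every d22 level of both genes lay far below every d21 level, and the clones lay close together at d22. Pou5f1, which encodes Oct4, measured 182, 188, 48.6 and 232 RPKM at d22, against 1111, 978, 539 and 1265 RPKM at d21 (log2 -2.72 ± 0.19 SE, adjusted p = 0.000314). Myc, the growth-promoting factor of the set, measured 12.5, 15.7, 15.3 and 15.6 RPKM at d22, against 52.0, 49.3, 63.4 and 84.9 RPKM at d21 (log2 -1.98 ± 0.13 SE, adjusted p = 0.000304). These falls were smaller, and Pou5f1 kept a level well above that of feeders. Mean feeder levels were 0.24 RPKM for Pou5f1 and 0.18 RPKM for Sox2, but 14.4 RPKM for Klf4 and 23.3 RPKM for Myc, so that Klf4 and Myc stood below the fibroblast level at d22. RPKM values do not separate the reads of an endogenous gene from those of a drug-driven copy.

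**Figure D1:**
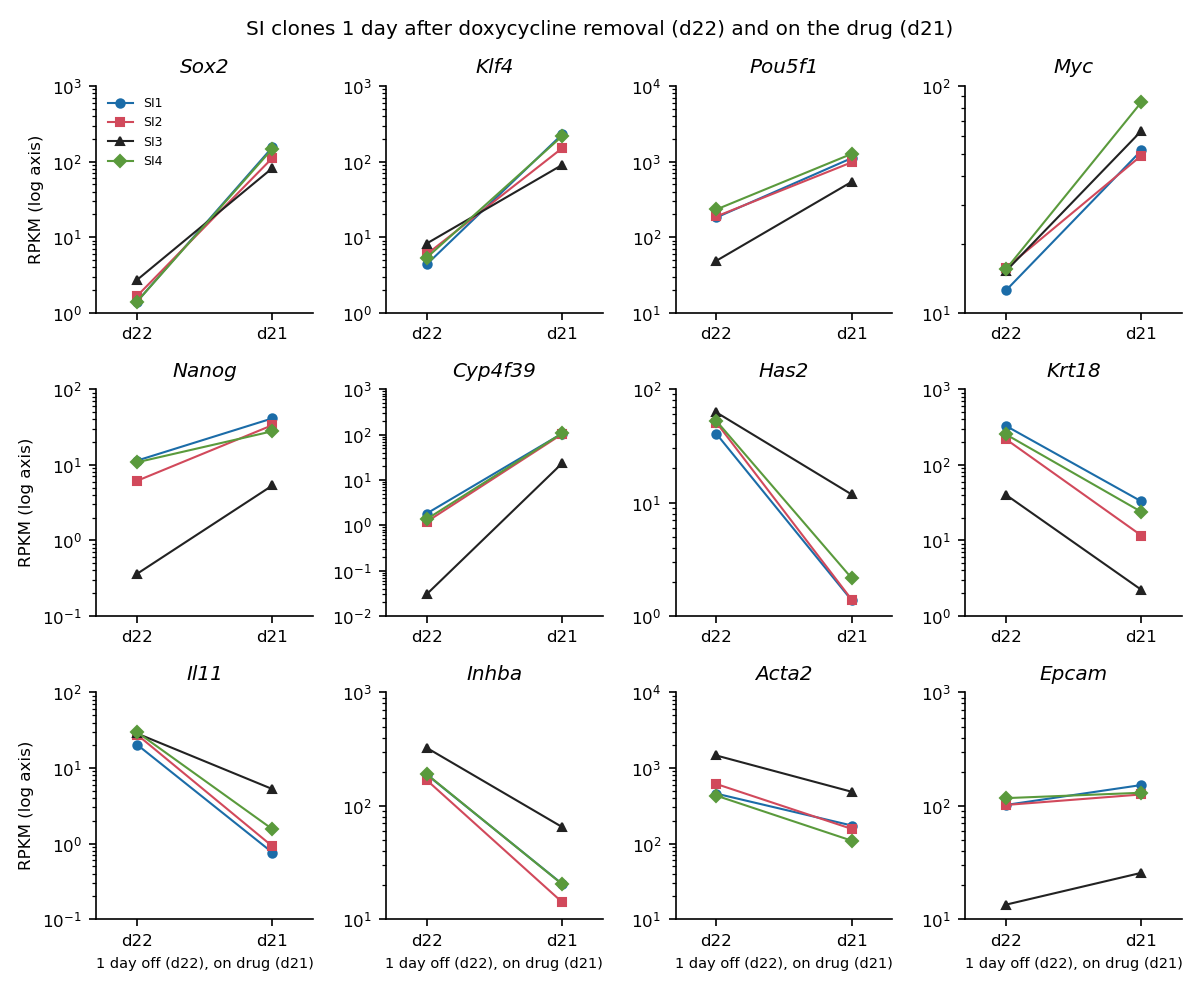
RPKM of 12 genes in each SI clone at d22 (left) and d21 (right), on log axes, with a line joining the libraries of 1 clone. The 4 factors, Nanog and Cyp4f39 run upward to d21, Has2, Krt18, Il11, Inhba and Acta2 run downward to it, and SI3 (black triangles) lies apart in Epcam, Krt18 and Nanog.

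The largest falls beside the factors were of genes with little or no expression in feeders. Cyp4f39, a cytochrome P450 of the family that hydroxylates long-chain fatty acids, measured 1.81, 1.19, 0.03 and 1.36 RPKM at d22, against 105, 102, 23.1 and 107 RPKM at d21 (log2 -5.22 ± 0.18 SE, adjusted p = 0.000205). Ly6g6f, which encodes an immunoglobulin-domain surface protein, measured 0.71, 0.49, 0 and 0.39 RPKM at d22, against 35.9, 36.3, 9.5 and 37.0 RPKM at d21. Its neighbour in the major histocompatibility complex, Ly6g6d, measured 0.72, 0.96, 0.13 and 0.82 RPKM at d22, against 37.1, 42.4, 6.98 and 31.1 RPKM at d21. SI3 had the lowest level of all 3 genes at both days, and no d22 level came near a d21 level. Gulo, which encodes the last enzyme of vitamin C synthesis, measured 3.04, 4.21, 0.23 and 4.6 RPKM at d22, against 71.7, 93.5, 4.35 and 75.9 RPKM at d21. Its days overlapped, since SI4 at d22 was above SI3 at d21. Krt6b, a keratin of stressed and stratified epithelium, measured 1.46, 1.98, 0.01 and 1.43 RPKM at d22, against 26.6, 60.4, 12.1 and 72.0 RPKM at d21. Gjb1, which encodes a gap junction protein, measured 0.71, 0.68, 0.02 and 0.38 RPKM at d22, against 28.9, 40.7, 6.29 and 26.8 RPKM at d21. Pga5 (pepsinogen), Avil (advillin, an actin regulator), Resp18 and Nefl (the light neurofilament chain) completed the 12 largest falls, at log2 -3.70, -3.52, -3.48 and -3.50, and the adjusted p of the 12 ran from 0.000205 to 0.00108. Gulo, Cyp4f39 and Ly6g6f had mean feeder levels of 0, 0.037 and 0.013 RPKM, and after 27 days with the drug the SI clones had 12.2, 45.7 and 15.5 RPKM. Genes of the Ugt1a cluster share exons, so that the level of any one of them is uncertain. Ugt1a1, a bilirubin-conjugating enzyme of that cluster chosen after its values were seen, measured 3.08, 5.57, 7.93 and 5.51 RPKM at d22, against 49.1, 61.8, 22.2 and 46.5 RPKM at d21.

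Of 20 tested naive pluripotency regulators (24 members), 8 fell and 6 rose, against 28.8% falling and 28.5% rising among all tested genes, with a median of -0.32 and of -0.22 without SI3, when 11 of 22 fell and 8 rose. Nanog, a core factor of the naive state, measured 11.3, 6.13, 0.36 and 10.8 RPKM at d22, against 41.1, 33.4, 5.32 and 27.8 RPKM at d21 (log2 -1.89 ± 0.18 SE, adjusted p = 0.000558). Nr0b1, a nuclear receptor partner of Oct4, measured 0.22, 0.13, 0.02 and 0.21 RPKM at d22, against 7.86, 13.3, 6.14 and 19.3 RPKM at d21 (log2 -3.35, adjusted p = 0.000314). Fgf4, a growth factor gene bound by Oct4 and Sox2, measured 0.48, 0.41, 0.04 and 0.62 RPKM at d22, against 5.34, 7.67, 2.51 and 8.96 RPKM at d21 (log2 -2.27, adjusted p = 0.000329). Nanog was thus still detected above its feeder mean of 0.11 RPKM in every clone after 1 day, while Nr0b1 and Fgf4 were under 1 RPKM in every clone. Esrrb, another nuclear receptor of the naive network, measured 1.72, 1.02, 0.13 and 1.72 RPKM at d22, against 4.97, 3.62, 0.79 and 5.3 RPKM at d21 (log2 -1.05, adjusted p = 0.000875). Without the clone block the adjusted p of Nanog was 0.0923 and that of Esrrb 0.0842.

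Rising members of that list included Lefty2, a secreted inhibitor of Nodal, which measured 14.6, 11.8, 4.74 and 10.7 RPKM at d22, against 2.16, 2.31, 3.02 and 2.48 RPKM at d21 (log2 1.63 ± 0.29 SE, adjusted p = 0.0046). Klf2, a relative of Klf4, measured 3.54, 3.89, 6.35 and 3.71 RPKM at d22, against 0.92, 1.17, 1.96 and 1.17 RPKM at d21 (log2 1.21, adjusted p = 0.000287). Klf5, Tbx3 and Utf1, chosen after their values were seen, rose by log2 2.03, 1.24 and 1.27. Klf2, Klf5 and Tbx3 are also expressed in feeders, at means of 6.00, 6.06 and 6.43 RPKM, whereas Utf1 and Lefty2 were at 0.01 and 0.023 RPKM there. Rif1, a chromatin and telomere protein that did not pass, measured 12.6, 8.58, 3.64 and 12.6 RPKM at d22, against 12.7, 10.5, 12.8 and 14.9 RPKM at d21 (adjusted p = 0.14), with SI3 the lowest at d22. Of 7 tested late pluripotency genes (15 members), 3 fell and 3 rose (42.9% each, against 28.8% and 28.5% of all tested genes). Tdh, the threonine-degrading enzyme of mouse pluripotent cells, measured 0.71, 0.39, 0.02 and 0.64 RPKM at d22, against 9.68, 15.8, 12.6 and 17.8 RPKM at d21 (log2 -3.38 ± 0.19 SE, adjusted p = 0.000269). Alpl, the alkaline phosphatase used to stain pluripotent colonies, measured 7.84, 6.58, 0.79 and 10.7 RPKM at d22, against 42.5, 40.4, 14.6 and 34.4 RPKM at d21 (log2 -2.37, adjusted p = 0.000633). Both genes were lower in each clone at d22 than in any clone at d21. Mybl2, a cell cycle factor, fell by 1.26 on the log2 scale. Dppa5a, an RNA-binding protein found mainly in pluripotent cells, rose by log2 0.99, at 2.1, 3.6, 0.28 and 3.23 RPKM at d22, against 0.56, 0.35, 0.17 and 1.01 RPKM at d21. Trh, the thyrotropin-releasing hormone gene, measured 7.12, 9.84, 0.31 and 6.77 RPKM at d22, against 8.11, 8.12, 10.8 and 27.7 RPKM at d21 (adjusted p = 0.11). Lin28a, an RNA-binding protein, stayed under 1 RPKM in all 8 libraries, at 0.61, 0.18, 0.31 and 0.26 RPKM at d22, against 0.28, 0.08, 0.41 and 0.31 RPKM at d21, and was not tested.

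Simple epithelial genes held both rises and falls. Of 27 tested, 10 rose (37.0%, against 28.5% of all tested genes) and 8 fell (29.6%, against 28.8%), with a median of 0.12. Without SI3 15 rose and 7 fell, with a median of 0.36. Krt18, a keratin of simple epithelia, measured 327, 218, 40.0 and 252 RPKM at d22, against 32.8, 11.6, 2.21 and 23.8 RPKM at d21 (log2 3.61 ± 0.15 SE, adjusted p = 0.000245). Its filament partner Krt8 measured 320.4, 275, 71.1 and 268 RPKM at d22, against 88.2, 62.9, 13.6 and 90.3 RPKM at d21 (log2 1.96 ± 0.13 SE, adjusted p = 0.000309). Cldn4, a tight junction protein, measured 308, 258, 38.8 and 316 RPKM at d22, against 48.3, 24.4, 8.32 and 52.1 RPKM at d21 (log2 2.67 ± 0.20 SE, adjusted p = 0.000329). All 3 were higher at d22 in each clone, with SI3 the lowest clone at both days. In feeders they averaged 4.45, 0.74 and 0.087 RPKM. Krt7, a further simple keratin that trophoblast also makes, measured 13.6, 7.4, 1.33 and 14.4 RPKM at d22, against 0.64, 0.07, 0.04 and 0.31 RPKM at d21 (log2 2.71, adjusted p = 0.00205). Cdh1, which encodes the cadherin of epithelial junctions, measured 109, 68, 10.3 and 107 RPKM at d22, against 72.9, 37.9, 17.4 and 80.3 RPKM at d21 (log2 0.28 ± 0.25 SE, adjusted p = 0.38). It was higher at d22 in SI1, SI2 and SI4 and lower in SI3, and without SI3 its difference was 0.60 (adjusted p = 0.000943). Epcam fell by 0.48 on the log2 scale (adjusted p = 0.0227), a call that was lost without the clone block (adjusted p = 0.642). Dsp, which encodes the desmosome protein desmoplakin and was chosen after its values were seen, fell by 1.02 (adjusted p = 0.00968, and 0.279 without the clone block).

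Among the 12 largest rises were further genes of epithelia, Crct1 and Foxj1, whose feeder means were 3.77 and 0.11 RPKM. Crct1, a gene of the cornified envelope cluster, measured 36.3, 37.3, 12.9 and 42.6 RPKM at d22, against 2.08, 2.32, 1.77 and 2.01 RPKM at d21 (log2 3.33, adjusted p = 0.000348). Foxj1, the master regulator of motile cilia, measured 9.24, 15.9, 3.04 and 18.4 RPKM at d22, against 0.17, 0.10, 0.07 and 0.14 RPKM at d21 (log2 3.27, adjusted p = 0.000882). After 2 days without the drug Crct1 and Foxj1 had means of 10.2 and 6.46 RPKM, against 32.3 and 11.6 RPKM after 1 day, a fall that was not tested. Of 16 tested squamous keratin and cornified envelope genes (25 found), 5 rose (31.2%, against 28.5% of all tested genes) and 7 fell (43.8%, against 28.8%). Their median was -0.12, and without SI3 7 rose and 7 fell, with a median of 0.03. Ivl (involucrin, a cornified envelope protein) rose by log2 1.46 and Sbsn (suprabasin) by 0.77, whereas Krtdap, a keratinocyte differentiation protein, measured 3.4, 6.91, 0.49 and 6.24 RPKM at d22, against 25.7, 28.9, 27.7 and 56.3 RPKM at d21 (log2 -2.94, adjusted p = 0.0012). Krt14, a basal keratin chosen after its values were seen, rose by log2 2.48 (adjusted p = 0.00424). Krt17, an inducible keratin, measured 131, 82.2, 3.08 and 85.6 RPKM at d22, against 126, 46, 6.98 and 87.5 RPKM at d21 (adjusted p = 0.932), and its direction turned without SI3.

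Fibroblast genes rose almost without exception. Of 32 tested fibroblast matrix genes (33 members), 31 rose (96.9%, against 28.5% of all tested genes) and 0 fell, with a median of 1.18 (1.17 without SI3, again with 31 rising). Of 14 fibroblast surface and cytoskeleton markers, 13 rose (92.9%, against 28.5% of all tested genes) and 0 fell, with a median of 1.21. Col1a1, the main chain of type I collagen, measured 744, 743, 1612 and 600.4 RPKM at d22, against 414, 376, 665 and 310.5 RPKM at d21 (log2 1.01 ± 0.09 SE, adjusted p = 0.000538). Lox, the enzyme that cross-links collagen, measured 270.4, 285, 627 and 311 RPKM at d22, against 99.95, 99.98, 218 and 109 RPKM at d21 (log2 1.49 ± 0.07 SE, adjusted p = 0.000245). Timp3, an inhibitor of matrix proteases, measured 104, 104, 189 and 86.6 RPKM at d22, against 23.4, 21.9, 31.6 and 13.5 RPKM at d21 (log2 2.36 ± 0.11 SE, adjusted p = 0.000245). Within each clone all 3 were higher at d22, with SI3 the highest at both days, and for Col1a1 the level of SI3 at d21 lay above that of SI4 at d22. Col12a1, a fibril-associated collagen, rose by log2 1.54, and Loxl3, a relative of Lox, measured 25.4, 31.1, 57.1 and 28.7 RPKM at d22, against 28.9, 29.4, 38.6 and 27.2 RPKM at d21 (adjusted p = 0.408). Thy1, a fibroblast surface glycoprotein, measured 175, 247, 487 and 208 RPKM at d22, against 59.6, 86.1, 264 and 84.7 RPKM at d21 (log2 1.30, adjusted p = 0.000612, and 0.0574 without the clone block). Itga5, the fibronectin receptor chain, Cav1 (caveolin) and Cd44, the hyaluronan receptor, rose by log2 2.03, 1.32 and 1.20, and Eng, a TGF-beta co-receptor, measured 6.25, 5.82, 11.0 and 8.54 RPKM at d22, against 4.1, 2.36, 6.68 and 11.5 RPKM at d21 (adjusted p = 0.137). The largest rise of any named gene was that of Has2, the enzyme that makes hyaluronan, at 40.4, 50.8, 62.5 and 52.5 RPKM at d22, against 1.37, 1.39, 11.8 and 2.15 RPKM at d21 (log2 3.74 ± 0.35 SE, adjusted p = 0.00056), with a feeder mean of 45.6 RPKM.

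Mesenchymal transcription factors rose with them. Of 14 tested (17 members), 12 rose (85.7%, against 28.5% of all tested genes) and 1 fell (7.1%, against 28.8%), with a median of 1.02. Snai1, a repressor of epithelial genes, measured 18.9, 21.8, 36.3 and 18.4 RPKM at d22, against 7.86, 9.39, 17.0 and 7.4 RPKM at d21 (log2 1.14 ± 0.07 SE, adjusted p = 0.000287). Runx1, a regulator of blood and mesenchymal lineages, measured 8.25, 7.81, 11.9 and 6.93 RPKM at d22, against 2.02, 1.75, 3.96 and 1.91 RPKM at d21 (log2 1.53, adjusted p = 0.000269). Prrx2, a limb mesenchyme homeobox gene, rose by log2 1.57 and Twist1, chosen after its values were seen, by 1.67. Neither Snai1 nor Runx1 overlapped between the days, and SI3 was the highest clone for both. Foxc1 measured 2.03, 3.35, 3.33 and 2.83 RPKM at d22, against 2.22, 3.15, 3.31 and 3.25 RPKM at d21 (adjusted p = 0.679). Foxd1, the one member that fell, was chosen after its values were seen. It measured 14.7, 18.6, 6.24 and 9.31 RPKM at d22, against 32.7, 35.1, 29.9 and 20.5 RPKM at d21 (adjusted p = 0.00323), and was at 0.78 RPKM in feeders.

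Of 16 smooth muscle contractile genes, 15 rose (93.8%, against 28.5% of all tested genes) and 0 fell. Their median was 1.72 (1.81 without SI3, with the same counts). Acta2, the actin of smooth muscle and myofibroblasts, measured 458, 614, 1464 and 430.3 RPKM at d22, against 173, 156, 484 and 109 RPKM at d21 (log2 1.73 ± 0.12 SE, adjusted p = 0.000314). Cnn2, a calponin that binds actin, measured 131, 159, 206 and 135 RPKM at d22, against 37.8, 32.9, 64.3 and 35.6 RPKM at d21 (log2 1.89 ± 0.11 SE, adjusted p = 0.000269). Each clone had more of both at d22, and for Cnn2 the days did not overlap. Csrp1 and Lmod1, which encode actin-binding proteins, rose by log2 2.10 and 1.65, and Tagln (transgelin), chosen after its values were seen, by 2.11. Actg2, the enteric smooth muscle actin, measured 38.4, 60.2, 103 and 37.9 RPKM at d22, against 36.3, 48.0, 49.5 and 45.2 RPKM at d21 (adjusted p = 0.258). The Cnn2 promoter is shown since contractile genes are textbook targets of serum response factor (SRF), which binds the CArG box. The 250 bases before its start are given 5′ to 3′, from RefSeq on GRCm38.p6 at chr10:79988350-79988599 (plus strand), with the match to the CArG box, 56 bases before the start, in capitals:
Cnn2: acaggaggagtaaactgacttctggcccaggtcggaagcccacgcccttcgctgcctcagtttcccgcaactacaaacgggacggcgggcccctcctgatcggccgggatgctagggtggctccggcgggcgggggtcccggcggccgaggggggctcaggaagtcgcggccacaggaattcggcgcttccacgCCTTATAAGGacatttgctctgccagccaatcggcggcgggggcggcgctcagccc
A CArG box on either strand stood in this window in 3 of 13 contractile genes with a RefSeq promoter (23.1%), against 439 of 27025 genes (1.6%). A match is only a description of the sequence.

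Response genes of YAP, SRF and TGF-beta, pathways that sense cell tension and matrix signals, rose in 18 of 19 cases (94.7%, against 28.5% of all tested genes), with 0 falling and a median of 1.76. Inhba, which encodes the activin A subunit, measured 189, 169, 325 and 190.0 RPKM at d22, against 20.5, 14.1, 65.0 and 20.4 RPKM at d21 (log2 3.02 ± 0.19 SE, adjusted p = 0.000287). Ankrd1, a nuclear protein induced by YAP, measured 17.6, 20.9, 33.8 and 18.5 RPKM at d22, against 0.88, 0.79, 7.06 and 1.32 RPKM at d21 (log2 3.03 ± 0.24 SE, adjusted p = 0.000391). At d22 the clones lay within a 2-fold range of each other for both genes, and neither overlapped d21. Tgfb3, a ligand of the pathway, rose by log2 1.88, Ltbp2, a latent TGF-beta binding protein, by 1.72, and Ccn2 (connective tissue growth factor), chosen after its values were seen, by 2.06. Skil, a feedback inhibitor of SMADs, measured 25.03, 22.9, 15.9 and 26.4 RPKM at d22, against 26.0, 21.4, 14.9 and 27.5 RPKM at d21 (adjusted p = 0.852). Further genes of matrix turnover and a growth factor were among the 12 largest rises, whose adjusted p ran from 0.000245 to 0.000882. Plaur, the urokinase receptor, measured 61.9, 64.6, 53.2 and 58.7 RPKM at d22, against 5.05, 2.89, 13.2 and 6.98 RPKM at d21. Serpinb2, an inhibitor of urokinase, measured 12, 30.1, 17.6 and 16.1 RPKM at d22, against 0.54, 0.67, 2.04 and 1.69 RPKM at d21. Pdgfb, a ligand that stimulates mesenchymal cells, measured 10.7, 15.2, 5.87 and 10.3 RPKM at d22, against 0.32, 0.30, 0.21 and 0.37 RPKM at d21. Of these only Pdgfb was far above its feeder mean, which was 0.68 RPKM against 73.5 for Plaur and 26.2 for Serpinb2.

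Immediate early genes, the first wave of transcription after growth factors or stress, rose in 18 of 19 tested cases (20 members). That is 94.7%, against 28.5% of all tested genes, with 0 falling and a median of 1.18. Egr2, a zinc finger factor, measured 3.56, 6.04, 4.9 and 3.88 RPKM at d22, against 0.18, 0.29, 0.51 and 0.42 RPKM at d21 (log2 2.04 ± 0.12 SE, adjusted p = 0.00028). Atf3, a stress-induced repressor, measured 3.73, 6.18, 4.31 and 5.28 RPKM at d22, against 0.28, 0.51, 0.75 and 0.42 RPKM at d21 (log2 1.97, adjusted p = 0.000287). Klf6 measured 47.8, 42.8, 44.7 and 54.6 RPKM at d22, against 19.9, 12.8, 15.8 and 15.3 RPKM at d21 (log2 1.53, adjusted p = 0.000315). For this list SI3 lay among the other clones: mean log2(RPKM + 1) of the immediate early genes was 4.13, 4.46, 4.39 and 4.21 at d22, against 3.15, 3.08, 3.15 and 3.19 at d21. Jun, a subunit of AP-1 chosen after its values were seen, rose by log2 2.03. Nr4a1, an orphan nuclear receptor, measured 27.1, 37.9, 53.9 and 28.0 RPKM at d22, against 36.1, 31, 21.9 and 32.6 RPKM at d21 (adjusted p = 0.495). Egr2 is a further SRF target in the literature of growth factor signalling, and its window (chr10:67537316-67537565, plus strand, GRCm38.p6, 1 of 5 RefSeq starts of the gene) is shown with the CArG box, 72 bases before the start, in capitals:
Egr2: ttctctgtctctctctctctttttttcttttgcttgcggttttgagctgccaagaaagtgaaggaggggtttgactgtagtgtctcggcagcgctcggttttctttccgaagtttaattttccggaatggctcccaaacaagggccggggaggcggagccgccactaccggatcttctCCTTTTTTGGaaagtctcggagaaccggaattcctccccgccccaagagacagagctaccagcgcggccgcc
The box stood in 2 of 16 immediate early genes with a RefSeq promoter (12.5%) and in 0 of 11 YAP, SRF and TGF-beta response genes. For Egr2 the bases just after this RefSeq start were not found near the start of a GENCODE transcript of the gene.

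Of 18 tested ERK and FGF feedback genes, 11 rose (61.1%, against 28.5% of all tested genes) and 5 fell (27.8%, against 28.8%). Their median was 0.52. Hbegf, an EGF receptor ligand, measured 40.7, 49.3, 46.9 and 48.2 RPKM at d22, against 6.54, 6.61, 10.3 and 10.1 RPKM at d21 (log2 2.36 ± 0.13 SE, adjusted p = 0.000269). Dusp5, a phosphatase of nuclear ERK, rose by log2 2.00 and Phlda1 by 1.47. Etv5 and Spry4, targets of FGF signalling chosen after their values were seen, fell by 1.02 and 0.77, so the list moved in both directions. Fgfr1, an FGF receptor, measured 40.8, 45.2, 53.7 and 42.5 RPKM at d22, against 35.2, 42.6, 40.0 and 38.4 RPKM at d21 (adjusted p = 0.0703). Of 12 tested BMP response genes, 8 rose (66.7%, against 28.5% of all tested genes) and 1 fell (8.3%, against 28.8%). Their median was 0.54. Id3, an inhibitor of basic helix-loop-helix factors, measured 28.6, 49.6, 73.6 and 29.1 RPKM at d22, against 7.92, 9.95, 22.8 and 8.63 RPKM at d21 (log2 1.81, adjusted p = 0.000297), Id1 rose by log2 1.02 and Msx2 by 0.88. Id4 measured 7.23, 8.68, 9.83 and 5.66 RPKM at d22, against 6.37, 8.87, 8.22 and 8.28 RPKM at d21 (adjusted p = 0.865).

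**Figure D2:**
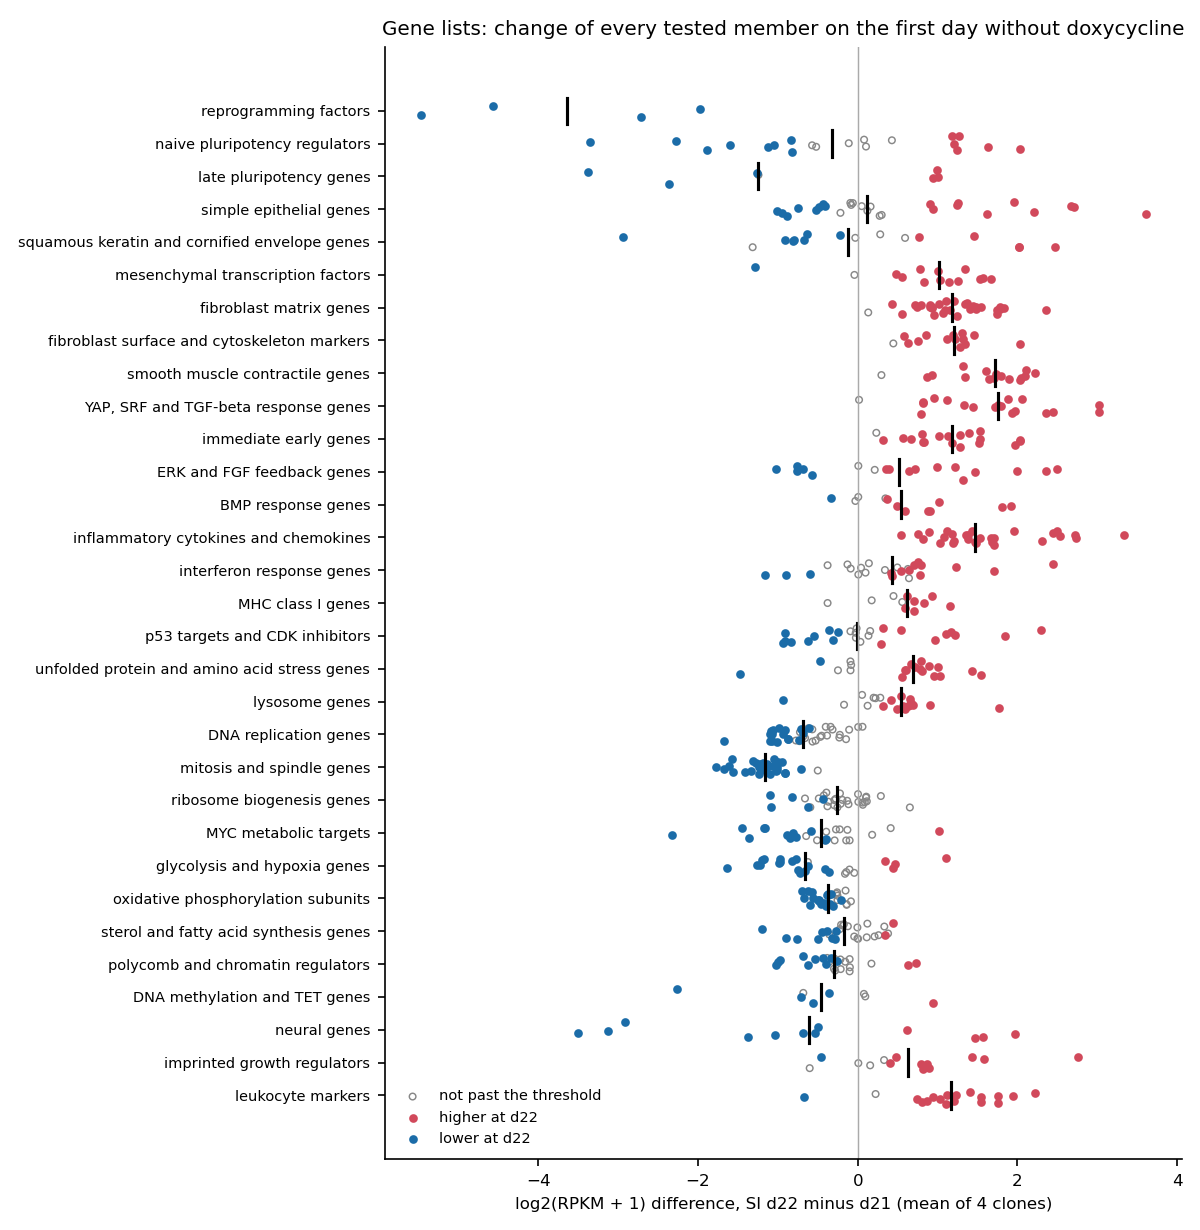
Log2(RPKM + 1) difference, d22 minus d21, of every tested member of 31 gene lists in the SI clones. Filled red points were higher and filled blue points lower at an adjusted p under 0.05, open points did not pass, and black bars are list medians, from -3.64 for the reprogramming factors to 1.76 for YAP, SRF and TGF-beta response genes.

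Every one of 29 tested inflammatory cytokines and chemokines (33 members) rose, with a median of 1.47, and likewise 29 of 29 without SI3, against 28.5% of all tested genes. Il11, a cytokine of the interleukin 6 family made by fibroblasts, measured 20.4, 27.7, 28.6 and 29.9 RPKM at d22, against 0.76, 0.92, 5.26 and 1.55 RPKM at d21 (log2 3.34 ± 0.27 SE, adjusted p = 0.00042). Icam1, a leukocyte adhesion molecule, measured 6.11, 7.47, 13.0 and 7.96 RPKM at d22, against 1.75, 2.1, 4.99 and 2.24 RPKM at d21 (log2 1.38, adjusted p = 0.000269). C3, the central complement component, measured 4.6, 6.12, 17.8 and 5.83 RPKM at d22, against 1.17, 1.6, 6.36 and 1.72 RPKM at d21 (log2 1.38, adjusted p = 0.000269). SI3 had the highest C3 and Icam1 at both days, but Il11 at d22 was alike in all 4 clones. Ccl8, a monocyte attractant, rose by log2 1.68 (adjusted p = 0.000256, and 0.0551 without the clone block). Ccl2 (another monocyte attractant), Csf1 (macrophage growth factor) and Tnf, chosen after their values were seen, rose by log2 2.53, 2.50 and 1.95. Penk, an opioid peptide precursor among the 12 largest rises but on no list, measured 21.4, 25.7, 42.5 and 40.7 RPKM at d22, against 0.80, 1.88, 5.32 and 2.1 RPKM at d21 (log2 3.35, adjusted p = 0.000269). The Il11 promoter is printed since this cytokine had the largest rise of its list and is a known AP-1 target (chr7:4778142-4778391, minus strand, GRCm38.p6, 1 of 2 RefSeq starts, AP-1 site 98 bases before the start in capitals):
Il11: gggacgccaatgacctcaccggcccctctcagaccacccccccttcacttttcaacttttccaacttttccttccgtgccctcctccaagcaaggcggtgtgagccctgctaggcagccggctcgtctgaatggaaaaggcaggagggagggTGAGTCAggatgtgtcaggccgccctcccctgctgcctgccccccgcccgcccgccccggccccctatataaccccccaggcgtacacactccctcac
An AP-1 site (TGANTCA, either strand) stood in 8 of 26 inflammatory genes with a RefSeq promoter (30.8%), against 2113 of 27025 genes (7.8%). An NF-kappaB site stood in 10 of 26 (38.5%), against 2225 of 27025 (8.2%). It was not particular to this list, with 37.5% for immediate early, 23.1% for contractile and 18.2% for YAP, SRF and TGF-beta response genes. Fibroblast matrix, mitosis and DNA replication genes had it in 10.5%, 8.0% and 6.5%. None of the 5 promoters printed here held a match to a further motif of the 4 searched.

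Interferon response genes were mixed: of 25 tested, 11 rose and 3 fell, with a median of 0.44, and without SI3 10 of 24 rose and 4 fell. Gbp2, an interferon-induced GTPase, measured 12.9, 15.8, 10.6 and 12.7 RPKM at d22, against 1.3, 1.21, 2.81 and 1.17 RPKM at d21 (log2 2.44 ± 0.22 SE, adjusted p = 0.000495). Irf1, an interferon regulatory factor, rose by log2 1.23 and Ifih1, a sensor of double-stranded RNA, by 0.76. Ddx58, which encodes the RNA sensor RIG-I, measured 17.1, 16.7, 11.6 and 17.2 RPKM at d22, against 16.9, 22.3, 11.9 and 18.4 RPKM at d21 (adjusted p = 0.287). Of 11 tested MHC class I genes, 7 rose (63.6%, against 28.5% of all tested genes) and 0 fell. Their median was 0.61, and without SI3 9 rose and 1 fell. H2-D1, a classical class I heavy chain, measured 91.9, 97.1, 153 and 86.4 RPKM at d22, against 53.8, 54.3, 75.4 and 52.6 RPKM at d21 (log2 0.83 ± 0.08 SE, adjusted p = 0.000604). Reads of class I genes can be split between near-identical copies, so the level of any one is uncertain. Erap1, which trims peptides for class I, rose by log2 1.16, Tapbp, which loads them, by 0.93, and Psmb10, an immunoproteasome subunit, measured 3.51, 6.56, 7.93 and 4.67 RPKM at d22, against 2.01, 4.35, 11.9 and 4.11 RPKM at d21 (adjusted p = 0.472).

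Markers of other cell types moved beside the fibroblast and inflammatory genes. Of 18 tested leukocyte markers (21 members), 16 rose (88.9%, against 28.5% of all tested genes) and 1 fell, with a median of 1.16. Their summed level was 225 to 494 RPKM at d22, against 112 to 178 RPKM at d21. Lyz2, the lysozyme of macrophages, measured 122, 180.3, 334 and 156 RPKM at d22, against 34.9, 45.3, 107 and 48.6 RPKM at d21 (log2 1.76 ± 0.09 SE, adjusted p = 0.000256). Adgre1, which encodes the macrophage marker F4/80, measured 3.43, 4.57, 11.8 and 4.79 RPKM at d22, against 0.41, 0.44, 1.84 and 0.47 RPKM at d21 (log2 1.94, adjusted p = 0.000269). Ctss, a cathepsin of antigen-presenting cells, rose by log2 1.40. No found member was at 0 in all 8 libraries, and the pan-leukocyte gene Ptprc, not tested for low values, measured 0.58, 0.67, 1.25 and 0.61 RPKM at d22, against 0.13, 0.08, 0.51 and 0.17 RPKM at d21. Feeder libraries also held these markers, with a mean of 157 RPKM for Lyz2 and 3.14 RPKM for Adgre1. Cd68, a lysosomal marker of macrophages, measured 8.68, 7.2, 8.23 and 7.62 RPKM at d22, against 14.0, 6.03, 3.63 and 5.93 RPKM at d21 (adjusted p = 0.471). Laptm5, the one member that fell, and Cd74, both chosen after their values were seen, differed by log2 -0.67 and 2.22.

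Genes on the Y chromosome differed in level between clones and feeders, but also from clone to clone on the drug. They are therefore no direct measure of mixture. Eif2s3y, a translation factor gene, measured 9.08, 19.5, 3.82 and 10.2 RPKM at d22, against 11.4, 28.2, 2.21 and 12.9 RPKM at d21, and averaged 3.48 RPKM in feeders. Ddx3y, an RNA helicase gene, measured 11.8, 21.0, 8.58 and 13.0 RPKM at d22, against 12.7, 24.0, 4.07 and 11.9 RPKM at d21, and averaged 6.04 RPKM in feeders. In SI1, SI2 and SI4 Eif2s3y was lower at d22 and above the feeder level at both days, whereas in SI3 it was higher at d22 and started below that level. Over 4 clones Eif2s3y, Ddx3y and Uty did not pass (adjusted p = 0.571, 0.431 and 0.515), and without SI3 Eif2s3y and Uty were lower at d22 (log2 -0.37, adjusted p = 0.00283, and log2 -0.24, adjusted p = 0.0314). The part of feeder cells or leukocytes in the fibroblast, contractile and inflammatory rises was not tested. The fibroblast matrix level at d22 was 8.03 in SI3 and 6.77 to 6.92 in the other clones, against 7.69 to 7.74 in the 3 feeder libraries. Among the 12 largest rises the feeder mean ran from 0.11 RPKM for Foxj1 to 261 RPKM for Inhba. It was 4.45 and 0.68 RPKM for Krt18 and Pdgfb, and 45.6 and 73.5 RPKM for Has2 and Plaur.

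Cell division genes fell. Of 30 mitosis and spindle genes, 29 fell and 0 rose, with a median of -1.16 (30 of 30 and -0.91 without SI3), against 28.8% of all tested genes that were lower. Nusap1, a spindle protein, measured 8.79, 9.39, 3.33 and 10.5 RPKM at d22, against 24.8, 31.1, 16.1 and 27.4 RPKM at d21 (log2 -1.58 ± 0.13 SE, adjusted p = 0.000396). Ccnb2, a mitotic cyclin, measured 18.6, 19.12, 9.64 and 21.6 RPKM at d22, against 44, 47.5, 24.5 and 39.0 RPKM at d21 (log2 -1.14 ± 0.10 SE, adjusted p = 0.000485). Cdc20, which activates the anaphase ubiquitin ligase, measured 26.0, 26.1, 15.9 and 29.1 RPKM at d22, against 65.5, 76.9, 69.9 and 76.0 RPKM at d21 (log2 -1.56 ± 0.14 SE, adjusted p = 0.000505). SI3 was the lowest clone at d22, and the feeder means were 1.73, 7.71 and 12.3 RPKM. Aurka, a mitotic kinase chosen after its values were seen, fell by 1.61, and Kif20a, a spindle motor and the one that did not pass, measured 18.6, 17.4, 10.4 and 19.4 RPKM at d22, against 21.9, 22.4, 27.9 and 20.8 RPKM at d21 (adjusted p = 0.0903). Mitotic genes are textbook targets of complexes that bind the CHR element (TTTGAA). The windows of Ccnb2 (chr9:70421555-70421804) and Cdc20 (chr4:118437344-118437593), both on the minus strand of GRCm38.p6, are given 5′ to 3′ with the element in capitals, 167 and 18 bases before the start:
Ccnb2: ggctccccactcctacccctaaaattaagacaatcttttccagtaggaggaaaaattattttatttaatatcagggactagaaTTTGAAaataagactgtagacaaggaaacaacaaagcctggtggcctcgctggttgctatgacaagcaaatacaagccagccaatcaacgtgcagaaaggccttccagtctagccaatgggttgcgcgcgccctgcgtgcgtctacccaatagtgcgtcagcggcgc
Cdc20: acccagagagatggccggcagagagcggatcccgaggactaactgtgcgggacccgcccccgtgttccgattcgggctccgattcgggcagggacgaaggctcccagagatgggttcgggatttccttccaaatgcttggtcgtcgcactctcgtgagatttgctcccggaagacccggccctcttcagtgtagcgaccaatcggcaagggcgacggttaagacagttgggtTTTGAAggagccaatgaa
The element stood on either strand in 11 of 25 mitosis genes with a RefSeq promoter (44.0%), against 4934 of 27025 genes (18.3%). For Ccnb2 the bases just after the RefSeq start were not found near the start of a GENCODE transcript of the gene. Whether either match is used in these cells was not tested.

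DNA replication genes fell less evenly: 17 of 38 fell (44.7%, against 28.8% of all tested genes) and 0 rose, with a median of -0.68. Without SI3 22 fell and 2 rose, with a median of -0.36. Gins1, a subunit of the replicative helicase, measured 2.7, 3.51, 1.03 and 3.48 RPKM at d22, against 8.89, 11.5, 9.4 and 11.1 RPKM at d21 (log2 -1.67 ± 0.18 SE, adjusted p = 0.000794). Rrm1, a ribonucleotide reductase subunit, measured 75.0, 68.6, 26.0 and 61.5 RPKM at d22, against 126, 123, 63.9 and 97.1 RPKM at d21 (log2 -0.87, adjusted p = 0.00164, and 0.0767 without the clone block), and Rfc5, a clamp loader subunit, fell by 0.61. Mcm3, another helicase subunit, measured 37.9, 37.1, 17.4 and 35.1 RPKM at d22, against 33.3, 42.3, 64.4 and 47.9 RPKM at d21 (adjusted p = 0.177), with SI3 the highest clone at d21 and the lowest at d22. Of 25 p53 targets and CDK inhibitors, 9 rose and 9 fell (36.0% each, against 28.5% and 28.8% of all tested genes), with a median of -0.01, and without SI3 10 rose and 9 fell. Cdkn1a, the p53 target that encodes p21, measured 172, 211, 205 and 164 RPKM at d22, against 184, 228, 162 and 163 RPKM at d21 (log2 0.03 ± 0.10 SE, adjusted p = 0.784). Cdkn2b, an inhibitor of CDK4 and CDK6 induced by TGF-beta, measured 24.8, 32.5, 31.9 and 23.2 RPKM at d22, against 5.37, 5.56, 12.7 and 6.28 RPKM at d21 (log2 1.84, adjusted p = 0.000613). Plk2 and Gadd45a, stress-response genes, rose by log2 0.97 and 1.10, and Pmaip1 (the death-promoting protein Noxa), chosen after its values were seen, by 2.29.

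Of 31 ribosome biogenesis genes 5 fell (16.1%, against 28.8% of all tested genes) and 0 rose, with a median of -0.25, but without SI3 9 fell and 9 rose, with a median of 0.01. Npm1, a nucleolar chaperone, measured 47.9, 54.0, 48.8 and 55.2 RPKM at d22, against 70.7, 90.1, 135 and 81.1 RPKM at d21 (log2 -0.82, adjusted p = 0.00769). Fbl (fibrillarin, which methylates ribosomal RNA) and Nop16 fell by 1.10 and 0.62, and Ncl (nucleolin) measured 88.3, 93.3, 69.0 and 100.05 RPKM at d22, against 93.3, 116, 247 and 135 RPKM at d21 (adjusted p = 0.0975). SI3 had the highest d21 level of both Npm1 and Ncl. Of 24 MYC metabolic targets, 12 fell and 1 rose, with a median of -0.46, and without SI3 14 fell and 3 rose. Paics, a purine synthesis enzyme, measured 71.4, 68.1, 34.0 and 68.9 RPKM at d22, against 151, 161, 87.2 and 140.2 RPKM at d21 (log2 -1.16 ± 0.08 SE, adjusted p = 0.000315). Gldc, the glycine decarboxylase, measured 4.05, 2.29, 0.94 and 2.82 RPKM at d22, against 22.2, 12.02, 14.3 and 15.7 RPKM at d21 (log2 -2.32, adjusted p = 0.000344). Ccnd2 (cyclin D2), the member that rose over 4 clones, measured 106, 92.9, 156 and 92.3 RPKM at d22, against 48.0, 41.7, 92.5 and 44.3 RPKM at d21 (log2 1.01), and Hspd1, a mitochondrial chaperone, measured 59.0, 68.4, 57.4 and 67.1 RPKM at d22, against 51.9, 71.1, 170.3 and 74.7 RPKM at d21 (adjusted p = 0.281).

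Of 25 glycolysis and hypoxia genes, 16 fell and 4 rose, with a median of -0.66, and without SI3 20 fell and 4 rose. Ldha, lactate dehydrogenase, measured 107, 110.0, 122 and 111 RPKM at d22, against 224, 323, 218 and 267 RPKM at d21 (log2 -1.17 ± 0.13 SE, adjusted p = 0.000824). Egln3, an oxygen-sensing hydroxylase, fell by 0.66, a call that was lost without the clone block (adjusted p = 0.472), and Bnip3, a mitochondrial protein induced by hypoxia and chosen after its values were seen, fell by 1.63. Vegfa, the vascular growth factor, moved the other way and measured 25.4, 30.6, 37.0 and 31.4 RPKM at d22, against 12.9, 12.7, 14.0 and 15.6 RPKM at d21 (log2 1.11, adjusted p = 0.000478). P4ha1, a collagen hydroxylase, measured 42.1, 42.7, 62.9 and 40.7 RPKM at d22, against 54.6, 53.8, 42.7 and 41.5 RPKM at d21 (adjusted p = 0.836). Of 27 tested oxidative phosphorylation subunits, 19 fell (70.4%, against 28.8% of all tested genes) and 0 rose. Their median was -0.37, with 0 changes of 2-fold, and without SI3 20 fell. Uqcrc2, a core subunit of complex III, measured 43.7, 49.6, 39.8 and 46.4 RPKM at d22, against 69.3, 78.2, 61.1 and 69.1 RPKM at d21 (log2 -0.62 ± 0.07 SE, adjusted p = 0.000793). The complex I subunits Ndufb8 and Ndufv2 fell by 0.69 and 0.60, and Ndufa4 measured 142, 157, 128 and 189 RPKM at d22, against 144, 176, 179.7 and 176 RPKM at d21 (adjusted p = 0.327). Of 27 tested sterol and fatty acid synthesis genes, 9 fell (33.3%, against 28.8% of all tested genes) and 2 rose, with a median of -0.17, and without SI3 12 fell and 9 rose. Scd1, a fatty acid desaturase, measured 59.9, 44.2, 21.1 and 43.4 RPKM at d22, against 126, 108, 57.1 and 91.3 RPKM at d21 (log2 -1.19, adjusted p = 0.000329). Its paralog Scd2 and the sterol reductase gene Dhcr7 fell by 0.90 and 0.45, and Acly, which makes acetyl-CoA from citrate, measured 53.1, 44.2, 41.9 and 52.4 RPKM at d22, against 52.1, 48.6, 58.4 and 58.6 RPKM at d21 (adjusted p = 0.158).

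Of 20 unfolded protein and amino acid stress genes, 14 rose and 2 fell, with a median of 0.70, and without SI3 14 rose and 3 fell. Hspa5, the main chaperone of the endoplasmic reticulum, measured 301, 341, 363 and 308 RPKM at d22, against 153, 155, 204 and 132 RPKM at d21 (log2 1.04 ± 0.09 SE, adjusted p = 0.000466). Dnajb9, its co-chaperone, and Xbp1, a transcription factor of the response, rose by log2 1.44 and 0.96, while Hsp90b1, a second chaperone, measured 280.1, 313, 327 and 303 RPKM at d22, against 356, 360.1, 280.1 and 311 RPKM at d21 (adjusted p = 0.505). Cth, which makes cysteine and was chosen after its values were seen, fell by 1.48. Of 21 lysosome genes, 14 rose (66.7%, against 28.5% of all tested genes) and 1 fell (4.8%, against 28.8%). Their median was 0.54, and without SI3 15 rose and 2 fell. Gpnmb, a lysosomal glycoprotein, measured 5.73, 6.84, 13.6 and 6.2 RPKM at d22, against 0.92, 0.96, 4.05 and 1.13 RPKM at d21 (log2 1.77, adjusted p = 0.000269), and Sqstm1, an autophagy receptor, rose by log2 0.67. Neu1, a sialidase and the one that fell over 4 clones, measured 7.32, 7.24, 4.5 and 6.13 RPKM at d22, against 15.1, 14.9, 7.95 and 14.6 RPKM at d21 (adjusted p = 0.00065), and Npc2, a cholesterol carrier, measured 52.0, 64.9, 111 and 59.5 RPKM at d22, against 54.9, 63.9, 68.4 and 49.6 RPKM at d21 (adjusted p = 0.211).

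More chromatin regulators fell than rose, with a small median change. Of 25 polycomb and chromatin regulators, 10 fell (40.0%, against 28.8% of all tested genes) and 2 rose (8.0%, against 28.5%). Their median was -0.29, and without SI3 11 fell and 3 rose. Phc1, a subunit of polycomb complex 1, measured 13.4, 10.5, 4.72 and 14.0 RPKM at d22, against 26, 22.1, 11.3 and 30.2 RPKM at d21 (log2 -1.02 ± 0.07 SE, adjusted p = 0.00032, and 0.0568 without the clone block). Setdb1, a histone methyltransferase that silences retroelements, fell by 0.99, and Trim28, the corepressor that recruits Setdb1, measured 87.9, 91.5, 63.2 and 76.9 RPKM at d22, against 72.2, 88.3, 109 and 74.8 RPKM at d21 (adjusted p = 0.648). Of 8 tested DNA methylation and TET genes, 4 fell and 1 rose, and without SI3 5 fell and 2 rose. Tet2, which oxidises 5-methylcytosine, measured 5.34, 3.32, 2.11 and 5.18 RPKM at d22, against 30.7, 17.9, 11.96 and 35.1 RPKM at d21 (log2 -2.27 ± 0.10 SE, adjusted p = 0.000245). Its relatives Tet1 and Tet3 fell by 0.56 and 0.36, and Tet1 was under 2 RPKM in all 8 libraries. Mbd3, a subunit of a deacetylase complex, measured 36.5, 40.9, 32.3 and 33.6 RPKM at d22, against 27.0, 37.3, 41.2 and 29.8 RPKM at d21 (adjusted p = 0.559), and Dnmt3b, a methyltransferase chosen after its values were seen, rose by log2 0.94 (adjusted p = 0.0394), a call that was lost on leaving out SI1, SI2 or SI4. Of 14 tested imprinted growth regulators, 9 rose (64.3%, against 28.5% of all tested genes) and 1 fell (7.1%, against 28.8%). Their median was 0.63, and without SI3 10 rose and 2 fell. Igf2, a fetal growth factor, measured 50.6, 48.5, 91.6 and 34.2 RPKM at d22, against 15.0, 15.6, 31.2 and 11.3 RPKM at d21 (log2 1.58 ± 0.07 SE, adjusted p = 0.000245). Its clearance receptor Igf2r and the adaptor gene Grb10 rose by log2 0.79 and 0.89, Peg10, chosen after its values were seen, by 2.75, and Snrpn measured 47.7, 29.97, 11.3 and 38.1 RPKM at d22, against 51.3, 47.7, 31.0 and 46.3 RPKM at d21 (adjusted p = 0.0525).

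**Figure D3:**
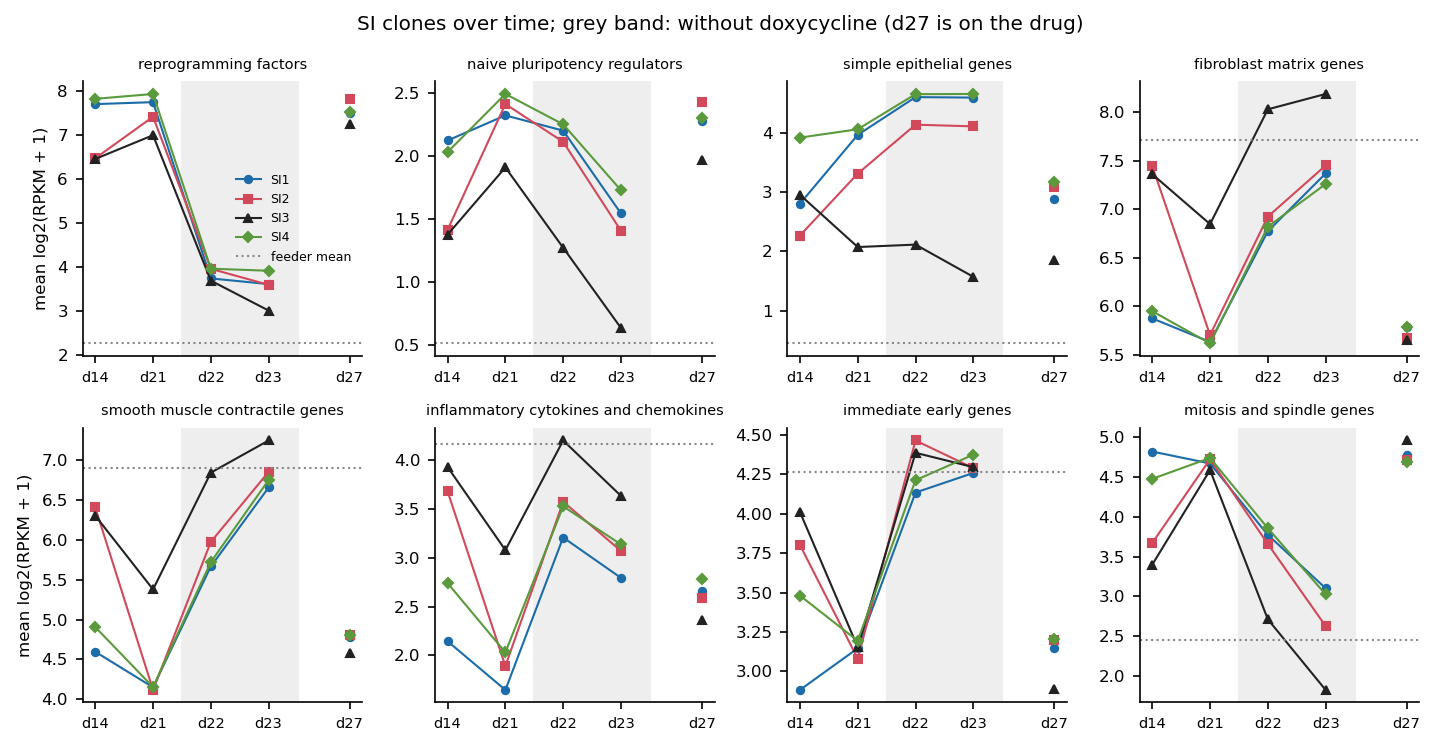
Mean log2(RPKM + 1) of 8 gene lists in each SI clone at d14, d21, d22, d23 and d27, with days off the drug shaded, d27 on the drug plotted apart, and a dotted line for the mean of 3 feeder libraries. From d21 to d22 the factors and mitosis genes drop, the fibroblast matrix, contractile, inflammatory and immediate early genes climb, and SI3 lies apart from the other clones in the epithelial, fibroblast and contractile genes.

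The plot of list levels over time sets the day of withdrawal beside the other SI libraries. Mean log2(RPKM + 1) of the smooth muscle contractile genes was 5.67 to 6.84 at d22, against 4.12 to 5.38 at d21, and it was 6.66 to 7.25 at d23, 4.58 to 4.81 at d27 on the drug, and 6.85 to 6.94 in feeders. For the mitosis and spindle genes it was 2.71 to 3.86 at d22, against 4.59 to 4.74 at d21, with 1.83 to 3.10 at d23 and 2.41 to 2.49 in feeders. For the inflammatory cytokines and chemokines it was 3.21 to 4.20 at d22, against 1.65 to 3.08 at d21, with 2.79 to 3.63 at d23 and 4.14 to 4.20 in feeders. No test was made against these other days, which share the d22 or d21 clones.

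Whether the response was particular to SI clones was asked by setting it against the same day in the 4 SC clones (8 libraries, d22 and d21). On the 8 SC libraries alone, limma called 4456 of 11949 tested genes between the same days at an adjusted p under 0.05. Counts of calls in 2 fits do not test a difference between the classes. limma's interaction term called 0 of 12644 genes (0%) at an adjusted p under 0.05, with 3353 at an unadjusted p under 0.05. Leaving out clone SC2 raised the call to 766 of 12545 genes. Only 14 of the genes named here were looked up in that limma fit. They were the 5 largest class differences in each direction, picked from these same libraries, and the MHC class I genes named above. Of the 14, 11 passed, but most had been picked for a large difference, so this is no separate support. Tdh had a difference of -3.28 there (adjusted p = 0.00812) and Sox2 one of -3.92 (adjusted p = 0.0178). Igf2 had the smallest unadjusted p of the genes named here, at log2 1.58 in SI and 0.80 in SC, a difference of 0.77 ± 0.12 SE (unadjusted p = 8.46e-05, adjusted p = 0.0996). Among genes with an unadjusted p under 0.01 and a mean of 5 RPKM or more in 1 group, Sox2 had the largest negative difference and measured 25.7, 3.82, 48.8 and 63.1 RPKM at d22, against 123, 168, 167 and 99.95 RPKM at d21 in SC1 to SC4 (difference -3.03 ± 0.82 SE, unadjusted p = 0.00488, adjusted p = 0.1). Tdh measured 18.7, 1.95, 27.2 and 37.3 RPKM at d22, against 26.0, 13.4, 23.5 and 38.2 RPKM at d21 in SC (difference -2.73 ± 0.50 SE, unadjusted p = 0.00038, adjusted p = 0.0996). In both genes SC2 resembled the SI clones and the other 3 SC clones did not. Dusp27, Slc7a3 (an arginine and lysine transporter) and Zfp990 followed under the same limits, with differences of -2.20, -1.94 and -1.85 and adjusted p = 0.0996 for each. Nanog, at 30.2, 12.1, 56.9 and 62.4 RPKM at d22, against 23.8, 24.5, 50.1 and 55 RPKM at d21 in SC, differed by -1.82 ± 0.31 SE (unadjusted p = 0.000228, adjusted p = 0.0996).

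In the other direction, the largest differences under the same limits were those of Serpinb1a (a protease inhibitor), Sprr2a3 (a cornified envelope protein), Cldn4, Lefty2 and Crct1, at 1.79, 1.69, 1.60, 1.48 and 1.44, with adjusted p-values of 0.0996 to 0.109. In the SI clones Serpinb1a measured 10.2, 12.01, 6.53 and 5.37 RPKM at d22, against 3.59, 4.95, 3.24 and 7.59 RPKM at d21, and did not pass (adjusted p = 0.0811). Cldn4 measured 64.2, 137, 119 and 25.9 RPKM at d22, against 36, 26.1, 45.8 and 31.2 RPKM at d21 in SC, where SC4 alone was lower at d22. Lefty2 was higher in each SC clone than in any SI clone on the same day, at 57.0, 18.0, 111 and 113 RPKM at d22, against 47.7, 9.16, 115 and 159 RPKM at d21. Median changes over the members tested in both fits had the same sign in SI and SC for 27 of 35 lists, for example 1.21 in SI and 0.61 in SC for fibroblast surface and cytoskeleton markers, and -1.16 in SI and -0.43 in SC for mitosis and spindle genes. Among the 8 lists of opposite sign were late pluripotency genes (-1.24 in SI and 0.14 in SC), naive pluripotency regulators (-0.32 and 0.14), interferon response genes (0.44 and -0.19) and ribosome biogenesis genes (-0.25 and 0.17), and the difference between these medians was not tested. The medians of SC1 and SC2 lay nearer to those of SI than those of SC3 and SC4 for contractile genes, at 1.59, 1.49, 0.80 and 0.53 in SC1 to SC4, against 1.61, 2.06, 1.59 and 1.73 in SI1 to SI4. Over all 8 clones no gene named here passed the adjusted threshold for a class difference, and a p that misses it does not show that the classes responded alike.

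**Figure D4:**
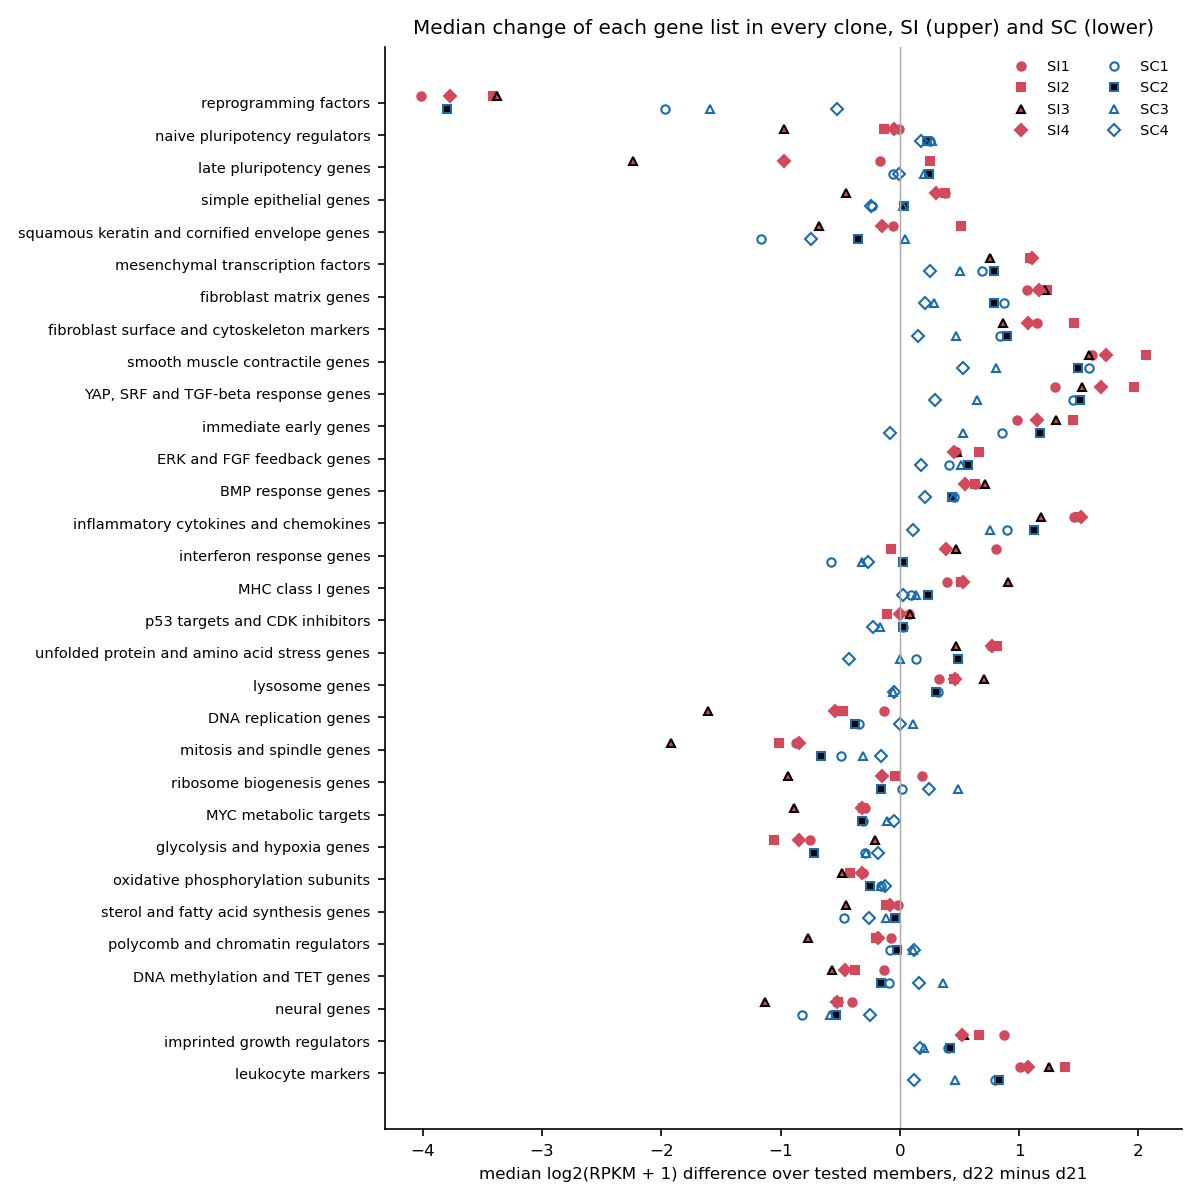
Median log2(RPKM + 1) difference, d22 minus d21, over the tested members of each gene list, for every SI clone (red, upper row) and SC clone (blue, lower row), with SI3 outlined and SC2 filled in black. For the reprogramming factors the SI clones lie between -4.01 and -3.38, with SC2 at -3.80 and the other SC clones between -1.97 and -0.53.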

How the data were processed

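All 20 SI libraries, the 8 of the SC clones at d22 and d21 and 3 feeder libraries were taken from 1 table of 47 messenger RNA libraries. The main contrast used the 8 SI libraries at d22 and d21. Per the labels' protocols, the libraries were made from column-purified RNA with an Illumina TruSeq kit. The authors' deposited values are taken as RPKM from their behaviour (the sum of value times gene length is 0.888 to 0.998 of the scale expected), since no header names the unit. The submitters' processing notes name CASAVA 1.8 and mm9 without a role. The sources used here do not give the aligner, the annotation release, the read length or the use of strand. Symbols were taken by Ensembl ID from GENCODE M21 (20750 of 22632 rows matched, 2013 with a symbol other than the deposited one). The labels conflict on the drug. Their treatment text gives the days as days with doxycycline, whereas their characteristics give 1 day without the drug for d22. The characteristics were followed.

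Genes with at least 1 RPKM in at least 4 libraries were fitted on log2(RPKM + 1) in R 4.3.3 by limma 3.58.1, using lmFit and a trended eBayes, with clone as a block and Benjamini-Hochberg adjustment over all genes tested at 0.05, 2-sided. The SI and SC changes were compared by an interaction term over 16 libraries with 8 clone blocks. Same-numbered libraries share a clone, and their deviations from the group means correlated at 0.577 to 0.675, above the highest correlation with any other clone (-0.279 to 0.394). Named genes were the 12 largest rises and 12 largest falls whose higher day averaged 5 RPKM or more and which had 1 direction in all 4 clones, 3 members of each list with the smallest p, the most abundant member that did not pass, 14 fixed genes, and the 5 largest class differences in each direction with an unadjusted p under 0.01 and 5 RPKM or more in 1 group; some of these are not reported here. Further named genes were chosen after their values were seen, as stated where they appear. Members and lists (36 lists, 764 of 772 members found) were chosen with earlier results of these data known. Promoters (250 bases before the start, 27025 genes) came from RefSeq on GRCm38.p6. The steps were tested on simulated data. Alternatives were a pseudocount of 0.1, no filter, rescaling by median ratios, no clone block, no trend, all 20 SI libraries together, and each clone left out in turn. Python 3.11.15 with numpy 2.4.6, pandas 2.3.3 and matplotlib 3.10.9 did the rest. No interval from read counts is given, since depth is known only up to a multiple.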

Additional observations from a re-analysis of the deposited data

Results flagged for a closer look

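Among 452 groups of 4 libraries checked (each tested gene named here, by the naming rule or after its values were seen, and each list level, at d22 and at d21), 64 held a library whose gap to the nearest other library was larger, as a share of the group's range, than Dixon's critical value. Chance flags about 1 in 20 groups, and here 14.2% were flagged. SI3 was the library in 53 of them, SI1 in 6, SI2 in 3 and SI4 in 2. Values below are RPKM of the library that stood apart, or mean log2(RPKM + 1) for a list. No explanation was tested.

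At d22 SI3 lay below the other clones for Crct1 (12.91), Nefl (1.07), Pou5f1 (48.58), Trh (0.31), Krt8 (71.07), Cldn4 (38.76), Krt17 (3.08), Dusp5 (11.25) and Mcm3 (17.4). It was also the low library that day for Nusap1 (3.33), Paics (33.95), Ddx58 (11.57), Epcam (13.41), Dnmt3b (1.51), Krt14 (25.18), Etv5 (10.11), Aurka (6.08) and Cth (12.23). It lay above them for Klf2 (6.35), Lox (626.79), Lmod1 (24.27), P4ha1 (62.88) and Grb10 (25.78). Among list levels at d22, SI3 was lowest for naive pluripotency regulators (1.273), late pluripotency genes (0.521), squamous keratin and cornified envelope genes (1.439), DNA replication genes (2.554), polycomb and chromatin regulators (2.941) and neural genes (1.743), and highest for fibroblast matrix genes (8.03).

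At d21 SI3 lay below the other clones for Cyp4f39 (23.12), Ly6g6f (9.5) and Gulo (4.35). It was also the low library that day for Egln3 (10.06), Neu1 (7.95) and Epcam (25.61). It lay above them for Has2 (11.78), Runx1 (3.96), Lox (218.17), Lmod1 (6.35), Gbp2 (2.81), H2-D1 (75.38) and Gpnmb (4.05). The high values of SI3 at d21 also took in Apoe (4.38), Grb10 (15.45), Adgre1 (1.84), Twist1 (7.63), Tagln (372.71) and Tnf (0.3). Among list levels at d21, SI3 was highest for mesenchymal transcription factors (2.787), fibroblast matrix genes (6.847), smooth muscle contractile genes (5.379) and leukocyte markers (2.045).

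The other clones stood apart less often. For single genes these were Myc (12.54, low, SI1 at d22) and Erap1 (4.82, low, SI1 at d22), and Sbsn (1.38, low, SI2 at d21), Krtdap (56.28, high, SI4 at d21), Foxc1 (2.22, low, SI1 at d21), Gadd45a (5.72, low, SI1 at d21), Ndufv2 (47.36, high, SI2 at d21), Ndufa4 (143.63, low, SI1 at d21) and Gata6 (6.05, high, SI1 at d21). For list levels they were endothelial markers (0.831, high, SI2 at d22) and late pluripotency genes (1.6, high, SI4 at d21).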

How the results depend on the processing

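In the paired design the clone block mattered most: with no replicate block limma called 4497 genes in place of 6798, of which 2263 were higher and 2234 lower at d22, and 4480 were shared. Of 193 named genes fitted, 158 passed, all 158 kept their direction in every alternative, and 138 stayed past the threshold in every one. A pseudocount of 0.1 called 6721 genes, no filter 8172, rescaling by median ratios 6938, no variance trend 6797 and all 20 SI libraries together 6754. Leaving out 1 clone in turn gave 4782 to 8649 calls, the highest without SI3. The class difference had 0 calls, 1 with no filter (Tmem171, at or under 0.42 RPKM in all 16 libraries), and 0 to 766 on leaving out 1 clone, the highest without SC2. Genes lost without the block, by adjusted p, were Nanog (0.0923), Esrrb (0.0842), Dppa5a (0.0694), Epcam (0.642), Dsp (0.279), Thy1 (0.0574), Egln3 (0.472), Rrm1 (0.0767), Ccl8 (0.0551), Phc1 (0.0568), Tet3 (0.221), Tead4 (0.0508), Igf2r (0.0718), Grb10 (0.127), Sprr2a3 (0.156), Etv5 (0.0759) and Laptm5 (0.18). Fitting all times together lost Epcam (0.394), Egln3 (0.187) and Ifih1 (0.102). Directions turned only for 12 genes that had not passed, whose log2 differences, over the fits that left out 1 clone each, ran from the lowest to the highest as follows. They were -0.314 to 0.283 for Krt17, -0.008 to 0.236 for Loxl3, -0.007 to 0.042 for Skil, -0.110 to 0.443 for Nr4a1, -0.116 to 0.121 for Id4, -0.067 to 0.082 for Cdkn1a, -0.240 to 0.065 for P4ha1, -0.228 to 0.123 for Trim28, -0.013 to 0.240 for Mbd3, -0.033 to 0.511 for Cd68, -0.053 to 0.314 for Ddx3y and -0.031 to 0.094 for Gata6. Without SI3, a setting applied to the list counts after seeing the data, 10 named genes passed that had not before, Cdh1 among them. The cause of these shifts was not tested. Depth, known only up to a multiple, limits genes near 1 RPKM.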

Other observations

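The neural, trophoblast and endothelial lists each held rises and falls. Of 12 tested neural genes (20 members), 8 fell (66.7%, against 28.8% of all tested genes) and 4 rose (33.3%, against 28.5%). Their median was -0.61, with the same counts without SI3. Stmn2, a microtubule regulator of growing neurites, measured 24.2, 41.5, 10.3 and 37.4 RPKM at d22, against 206, 330.1, 156 and 247 RPKM at d21 in SI1 to SI4 (log2 -3.12 ± 0.18 SE, limma adjusted p = 0.000269). Nefm, the middle neurofilament chain, measured 2.74, 3.21, 0.76 and 2.36 RPKM at d22, against 17.8, 27.3, 18.8 and 27.6 RPKM at d21 (log2 -2.92, adjusted p = 0.0003). Both were high in all clones on the drug and low in feeders, at means of 6.61 and 0.26 RPKM. Ncam1, a neural cell adhesion molecule that fibroblasts also express, measured 14.1, 13.1, 22.3 and 11.4 RPKM at d22, against 4.75, 2.93, 8.03 and 2.9 RPKM at d21 (log2 1.57, adjusted p = 0.000309), with a feeder mean of 23.3 RPKM.

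Of 8 tested trophoblast genes (18 members), 2 rose and 3 fell, and without SI3 4 of 9 rose and 4 fell. Krt7 and Peg10 were the members that rose over 4 clones. Esx1, a placental homeobox gene, measured 0.44, 0.31, 0.21 and 0.34 RPKM at d22, against 2.51, 5.94, 8.84 and 6.55 RPKM at d21 (log2 -2.30, adjusted p = 0.00105), and Tead4, a partner of YAP, fell by 1.02 (adjusted p = 0.000704, and 0.0508 without the clone block). Gata2 measured 31.0, 21.1, 4.7 and 20.8 RPKM at d22, against 20.8, 19.8, 6.57 and 9.22 RPKM at d21 (adjusted p = 0.277). Of 4 tested endothelial markers (15 members), 1 rose and 2 fell. Tek, the angiopoietin receptor, measured 2.14, 2.6, 0.52 and 1.19 RPKM at d22, against 12.8, 13.6, 5.29 and 9.47 RPKM at d21 (log2 -2.11, adjusted p = 0.000222), and Flt1, a VEGF receptor, measured 11.3, 9.21, 11.1 and 8.92 RPKM at d22, against 2.4, 1.92, 3.93 and 2.51 RPKM at d21 (log2 1.61, adjusted p = 0.000323). Egfl7, a secreted vascular protein, fell by 0.53 from low levels (adjusted p = 0.0122), a call that was lost without SI2 and without SI4 (adjusted p = 0.0578 and 0.0606).

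Of 19 endoderm and mesoderm regulators only 3 were tested, and 1 rose (33.3%, against 28.5% of all tested genes). That gene, Apoe, a lipid carrier of endoderm that many cells make, measured 18.2, 28.0, 20.4 and 23.8 RPKM at d22, against 3.61, 3.54, 4.38 and 3.53 RPKM at d21 (log2 2.30, adjusted p = 0.000269). Gata4 and Gata6 did not pass, with adjusted p = 0.277 and 0.629. None of 21 germline and meiotic genes found was tested, and their summed level was 1.79 to 3.02 RPKM at d22, against 2.12 to 5.20 RPKM at d21.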
